A study of Mus musculus with 15 samples.

Results

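The antioxidant and Nrf2 response genes described here are 34 genes for the enzymes, carrier proteins and regulators with which a cell handles peroxides, superoxide, oxidized thiols, heme and iron. They were taken by gene symbol as a named list, which was drawn up with earlier results of these data known, and all 34 were found among the 20308 genes of the deposited table. All 34 also lay among the 14151 genes tested, those whose 75th percentile over the libraries was above 10. RNA was sequenced from whole islets of C57BL/6 mice, 48 hr after adenovirus was applied. There were 3 groups of 5 libraries, given ca-Nfatc2, ca-Nfatc1 or GFP, where ca marks a constitutively active form in which serines of the regulatory region are replaced by alanine. On each of 5 days the islets of 6 mice were pooled and every pool was divided over the 3 viruses, so a replicate number stands for a day, and p-values measure the spread between these pools. All groups carried adenovirus with the CMV promoter, which is not restricted to a cell type, and islets without virus were not analysed here. The age and sex of the mice behind these libraries were not given in the sources used here. Values are normalized expected counts, that is, the estimated number of reads per gene after scaling for library depth. They are not divided by transcript length, so levels were compared between groups and not between genes.

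Nrf2, the product of Nfe2l2, is a transcription factor that Keap1 holds in the cytoplasm and hands to a ubiquitin ligase. Oxidants and electrophiles modify cysteines of Keap1, and Nrf2 then enters the nucleus, pairs with a small Maf protein and binds antioxidant response elements, with Bach1 as a repressor at the same elements. Its known targets include heme oxygenase 1, the quinone reductase Nqo1, the enzymes of glutathione synthesis, thioredoxin reductase, sulfiredoxin, glutathione S-transferases and ferritin. Pancreatic beta cells are known for low catalase and glutathione peroxidase activity relative to the liver, so peroxiredoxins and thioredoxin carry much of their peroxide removal. NFAT proteins often bind DNA together with AP-1 at composite elements, in which an NFAT core lies a few bases from an AP-1 site, and the antioxidant response element itself resembles an AP-1 site.

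These elements were looked for as letters on both strands of RefSeq windows in build GRCm38.p6, 250 bases before to 50 after each transcription start. A window was available for 29 of the 34 genes, with 38 windows in all. The core TGACNNNGC of the antioxidant response element was in 6 of the 38 windows (15.8%), against 12.4% of all 32851 windows. The AP-1 letters TGAGTCA were in 4 of the 38 (10.5%), against 5.2% of all windows. These 4 windows belong to 3 genes, since Glrx has a pair of windows shifted by 1 base that hold the same site. The NFAT:AP-1 composite, GGAAA followed after 4 bases by TGANTCA, was in 1 of the 38 (2.63%), against 0.0548% of all windows. The 5 stretches of 81 bases below are printed 5′ to 3′ on the gene's own strand because they hold these letters. Their genes span the regulator, glutathione synthesis, the thioredoxin system and the peroxiredoxins. The stretches were chosen with the direction of these genes known, all lower with both viruses. No link between letters and change can therefore be read from them. The first 3 hold the antioxidant core in capitals, on the other strand in Gclm and Txnrd1 and on the gene's strand in Nfe2l2, at 134, 92 and 240 bases before the start. Txnrd1 has other windows, at other starts, that lack this core. Srxn1 holds a pair of AP-1 sites in capitals, starting 102 and 45 bases before its start. In Prdx1 the capitals mark the composite, which starts 140 bases before the start and whose AP-1 part also overlaps an antioxidant core read on the other strand.
Gclm, chr3:122245387-122245467, plus strand: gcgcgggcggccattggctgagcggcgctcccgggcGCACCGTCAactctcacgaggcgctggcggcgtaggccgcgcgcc
Txnrd1, chr10:82859078-82859158, plus strand: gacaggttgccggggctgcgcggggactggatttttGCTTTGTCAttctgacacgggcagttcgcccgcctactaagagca
Nfe2l2, chr2:75704833-75704913, minus strand: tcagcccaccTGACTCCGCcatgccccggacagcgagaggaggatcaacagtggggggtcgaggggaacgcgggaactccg
Srxn1, chr2:152105413-152105493, plus strand: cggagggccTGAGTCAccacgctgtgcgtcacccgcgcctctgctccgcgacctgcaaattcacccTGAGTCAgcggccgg
Prdx1, chr4:116685426-116685506, plus strand: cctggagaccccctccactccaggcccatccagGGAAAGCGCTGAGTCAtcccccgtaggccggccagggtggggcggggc
The antioxidant core was also found in the windows of Sod1, Prdx1 and Srxn1, and AP-1 letters in those of Glrx. None of these letters was found in the other genes with a window, Gpx2, Cat and Gss among them. A match describes the letters of these windows, and no binding was measured. The part of these letters in the changes of their genes was not tested. Of all 34 genes 19 fell with ca-Nfatc2 and 20 with ca-Nfatc1, against 32.8% and 28.4% of all genes tested.

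In expected counts before scaling, the ca-Nfatc2 libraries held 13.52 to 19.84 M, the ca-Nfatc1 libraries 15.32 to 21.13 M and the GFP libraries 13.36 to 18.87 M. Nfatc2 was at 58496 ± 18871 in ca-Nfatc2 islets against 566 ± 108 in GFP islets, and Nfatc1 was at 27619 ± 1971 in ca-Nfatc1 islets against 247 ± 49.3 in GFP islets (mean ± SD, n = 5). All markers of beta and alpha cells were detected, as the tissue label says, but 7 of 7 beta cell markers were lower with ca-Nfatc2 and 5 of 7 with ca-Nfatc1. Among all genes 32.8% were lower with ca-Nfatc2 and 28.4% with ca-Nfatc1. The summed beta cell markers ranged over 450540 to 792310, 647870 to 977650 and 803760 to 1235100 in ca-Nfatc2, ca-Nfatc1 and GFP islets, and none of them was at 0. The summed alpha cell markers ranged over 164970 to 222450, 216870 to 263320 and 380390 to 603790 in the same order. Gcg, at a mean of 477240 in GFP islets, made up most of this sum. Of the alpha cell markers 5 of 5 were lower with ca-Nfatc2 and 3 of 5 with ca-Nfatc1, where Ttr averaged 11167 against 11223 in GFP islets. In the same order of groups the summed macrophage markers ranged over 1599 to 2869, 1918 to 2574 and 1277 to 1776, and the 6 proliferation genes over 3241 to 4904, 483 to 542 and 501 to 689. Their part in the results below was not tested, and in RNA of whole islets fewer cells of a type cannot be told apart from less RNA per cell. Among the libraries, ca-Nfatc2 replicate 5 had a red blood cell marker sum of 120320, against 2.10 to 1062 in the other 14. In ca-Nfatc2 replicate 4 Nfatc2 was highest, at 89098, and so was Csf1r, a macrophage receptor gene. Csf1r ranged over 236 to 1047 in ca-Nfatc2 islets, 106 to 115 in ca-Nfatc1 islets and 74.4 to 104 in GFP islets. The macrophage markers did not move together. Of the 8 genes 2 rose and 2 fell with ca-Nfatc2 (median log2 fold change -0.40), against 35.7% and 32.8% of all genes. With ca-Nfatc1 0 of the 8 passed (median 0.27).

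Most of the 34 genes changed with each ca-NFAT, and more of them fell than rose. With ca-Nfatc2 9 rose and 19 fell against GFP, at a limma adjusted p under 0.05, and 6 did not pass. Of all genes tested 68.6% passed in this comparison, 35.7% upward and 32.8% downward, so the 34 genes lie above the background downward and below it upward. With ca-Nfatc1 11 rose, 20 fell and 3 did not pass, where 56.8% of all genes passed, 28.4% upward and 28.4% downward. Among the calls over all genes the upward share was 52.1% with ca-Nfatc2 and 50% with ca-Nfatc1, and it moved with the scaling, to 43.5% and 39.1% after quantile normalization and to 56.8% and 57.9% with equal totals. Of the 34 genes 19 fell with ca-Nfatc2 and 20 with ca-Nfatc1 after quantile normalization, and 18 and 19 with equal totals. The share of all genes that fell at each of these scalings is not given here, so these counts lack their own background. Over all fits except those leaving out 1 library, all genes lower numbered 3773 to 5623 with ca-Nfatc2 and 3273 to 5193 with ca-Nfatc1. Some of these fits changed the number of genes tested. Members higher numbered 8 to 9 and 10 to 12 in the same fits. The median log2 fold change of the 34 genes was -0.27 with ca-Nfatc2, against 0.0065 over all genes, and -0.37 with ca-Nfatc1, against -0.025 over all genes. At least a 2-fold change, with the test passed, was seen with ca-Nfatc2 for 2 genes upward and 7 downward, and with ca-Nfatc1 for 1 upward and 4 downward. Such a change was found in 20.3% of all genes with ca-Nfatc2 and in 15% with ca-Nfatc1. Of all genes 13.1% rose and 7.25% fell by that much with ca-Nfatc2, and 11% rose and 4.04% fell with ca-Nfatc1. The 5 ca-Nfatc2 values lay wholly above the 5 GFP values for 6 genes and wholly below for 15, and those of ca-Nfatc1 for 9 and 17. Over all genes the groups were apart in 52% with ca-Nfatc2 (27.7% upward and 24.3% downward) and in 42.4% with ca-Nfatc1 (22.4% upward and 19.9% downward).

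The 2 comparisons share the GFP libraries, so their directions are given side by side and not as separate support. Keap1, Gss, Txn1, Sod2, Sod3 and Gpx1 passed upward in each of them. Txn2 rose with ca-Nfatc2 and fell with ca-Nfatc1, while Txnip fell with ca-Nfatc2 and rose with ca-Nfatc1. Nqo1, Prdx4, Prdx5 and Fth1 passed, upward, with ca-Nfatc1 and not with ca-Nfatc2, Prdx6 passed, downward, with ca-Nfatc1, and Prdx2 and Prdx3 passed, upward, with ca-Nfatc2. Gpx7 passed with neither. Without ca-Nfatc2 replicates 4 and 5, an alternative chosen after seeing the data, 8 genes rose and 19 fell with ca-Nfatc2.

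**Figure D1:**
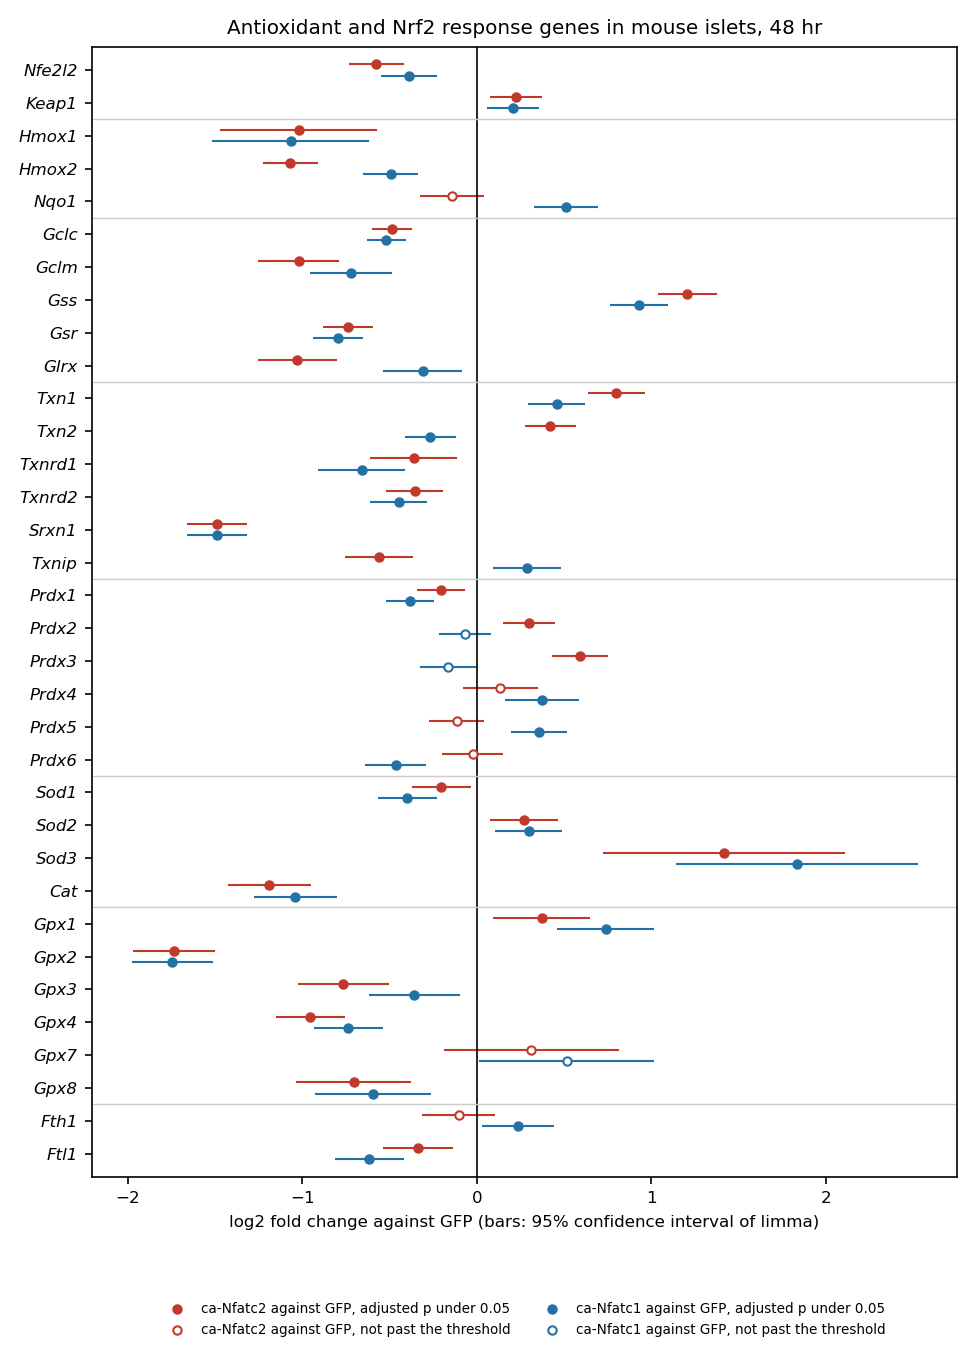
Log2 fold change of the 34 genes against GFP, ordered by role, with ca-Nfatc2 above ca-Nfatc1 for each gene; points are limma estimates, bars their 95% confidence interval, and open points did not pass. Srxn1, Gpx2, Cat and Hmox1 lie at or below -1 with both viruses, Gss and Sod3 lie on the right, and Txn2 and Txnip have their points on opposite sides of 0.

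The RNA of the regulator itself was lower with both viruses, and that of its inhibitor was slightly higher. Nrf2 protein, its place in the cell and its activity were not measured here. Nfe2l2 was at 995, 888, 925, 968 and 1027 normalized expected counts in ca-Nfatc2 islets, at 1188, 1084, 1001, 1048 and 1154 in ca-Nfatc1 islets and at 1662, 1256, 1346, 1388 and 1534 in GFP islets, in the order of replicates 1 to 5. All 10 ca-NFAT libraries lay below the lowest GFP library. The log2 fold change was -0.58 with ca-Nfatc2 (standard error 0.075, limma adjusted p = 2.59e-06) and -0.39 with ca-Nfatc1 (standard error 0.075, limma adjusted p = 0.000272). Keap1, the adaptor that marks Nrf2 for degradation, was at 1442, 1677, 1553, 1586 and 1489 in ca-Nfatc2 islets, 1556, 1498, 1541, 1615 and 1462 in ca-Nfatc1 islets and 1169, 1367, 1458, 1484 and 1187 in GFP islets. It was higher on each of the 5 days with either virus, but the ranges overlapped with GFP, and the log2 fold changes were 0.22 and 0.21 with ca-Nfatc2 and ca-Nfatc1 (limma adjusted p = 0.00999 and 0.0177). The Keap1 call with ca-Nfatc1 was lost when GFP replicate 5 was left out (limma adjusted p = 0.0563 without it).

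Among 11 other genes of Nrf2 regulation, 3 rose and 5 fell with ca-Nfatc2 (median log2 fold change -0.31), and 2 rose and 5 fell with ca-Nfatc1 (median -0.30), where the medians of all genes are those given above. The shares of all genes were 35.7% upward and 32.8% downward with ca-Nfatc2, and 28.4% in each direction with ca-Nfatc1. Bach1, the repressor at antioxidant response elements, averaged 819 ± 32.6 in ca-Nfatc2 islets, 1039 ± 31.1 in ca-Nfatc1 islets and 1564 ± 128 in GFP islets (SD, n = 5), log2 fold changes of -0.93 and -0.59 with ca-Nfatc2 and ca-Nfatc1 (limma adjusted p = 2.21e-10 and 1.51e-07). The small Maf partners moved in different directions. Maff averaged 893 ± 226 in ca-Nfatc2 islets, 1045 ± 84.1 in ca-Nfatc1 islets and 209 ± 22.02 in GFP islets, and its log2 fold change was 2.07 with ca-Nfatc2 and 2.32 with ca-Nfatc1 (limma adjusted p = 1.64e-10 and 3.85e-11). Mafg averaged 1122 ± 91.5 in ca-Nfatc2 islets, 1149 ± 93.4 in ca-Nfatc1 islets and 2144 ± 85.7 in GFP islets, and fell by 0.94 on the log2 scale with ca-Nfatc2 and by 0.90 with ca-Nfatc1 (limma adjusted p = 1.11e-09 and 2.51e-09).

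Both heme oxygenases fell, and the quinone reductase rose with ca-Nfatc1. Hmox1, the inducible enzyme that opens the heme ring, was at 748, 613, 733, 1896 and 1016 in ca-Nfatc2 islets, 869, 814, 868, 933 and 965 in ca-Nfatc1 islets and 1665, 1841, 1633, 1824 and 2438 in GFP islets. Replicate 4 of ca-Nfatc2 was as high as GFP islets, whereas the other 4 ca-Nfatc2 libraries and all 5 ca-Nfatc1 libraries lay below every GFP library. The log2 fold change was -1.02 with ca-Nfatc2 (standard error 0.21, limma adjusted p = 0.000393), lower on 4 of 5 days, and -1.28 without that replicate (limma adjusted p = 1.19e-07). The same replicate had the highest summed macrophage and duct markers of its group, 2869 and 12271, whose part in the Hmox1 value was not tested. The duct sums ranged over 8053 to 11313 in ca-Nfatc1 islets and 8431 to 9523 in GFP islets. The duct markers did not move together. Of the 6 tested 4 rose and 1 fell with ca-Nfatc2, against 35.7% and 32.8% of all genes. Krt7 averaged 2642 in ca-Nfatc2 and 5983 in GFP islets, and Muc1 2105 and 50.7. With ca-Nfatc1 the log2 fold change of Hmox1 was -1.07 (limma adjusted p = 0.000362), lower on 5 of 5 days. Hmox2, the constitutive heme oxygenase, was at 929, 777, 887, 879.9 and 881 in ca-Nfatc2 islets, 1447, 1339.7, 1136, 1348 and 1229 in ca-Nfatc1 islets and 1940.4, 1965, 1596, 1797 and 1849 in GFP islets, so that the 3 groups did not overlap. Its log2 fold change was -1.07 with ca-Nfatc2 and -0.49 with ca-Nfatc1 (limma adjusted p = 7.87e-10 and 2e-05). Nqo1, which reduces quinones by a pair of electrons, averaged 354 ± 40.9 in ca-Nfatc2 islets, 556 ± 40.5 in ca-Nfatc1 islets and 389.7 ± 31.95 in GFP islets (SD, n = 5). It rose with ca-Nfatc1 by a log2 fold change of 0.51 (limma adjusted p = 7.57e-05), and with ca-Nfatc2 the value was -0.14 (95% interval -0.32 to 0.044, limma adjusted p = 0.162).

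In glutathione synthesis the enzymes of the first step fell and that of the second rose. Gclm, the modifier subunit of glutamate-cysteine ligase, was at 617, 786, 918, 915 and 887 in ca-Nfatc2 islets, 786, 1132, 990.1, 1144 and 1008 in ca-Nfatc1 islets and 1514, 1717, 1654, 1754 and 1643 in GFP islets. Every ca-NFAT library was below every GFP library, and the log2 fold changes were -1.02 and -0.72 with ca-Nfatc2 and ca-Nfatc1 (limma adjusted p = 2.52e-07 and 2.38e-05). Gclc, the catalytic subunit of the same rate-limiting enzyme, averaged 1362 ± 35.99 in ca-Nfatc2 islets, 1332 ± 40.3 in ca-Nfatc1 islets and 1911 ± 132 in GFP islets (SD, n = 5), with log2 fold changes of -0.49 and -0.52 (limma adjusted p = 3.01e-07 and 2.06e-07), and was again apart from GFP with both. Gss, glutathione synthetase, which adds the glycine, was at 1238, 1181, 1212, 977 and 1067 in ca-Nfatc2 islets, 1031, 959, 868, 959 and 857 in ca-Nfatc1 islets and 527, 542, 444, 468 and 473 in GFP islets. The lowest ca-NFAT library was well above the highest GFP library, and the log2 fold changes were 1.21 and 0.93 with ca-Nfatc2 and ca-Nfatc1 (limma adjusted p = 3.81e-10 and 1.8e-08).

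Gsr and Glrx, the remaining genes of this group, fell with both viruses. Gsr, glutathione reductase, which returns oxidized glutathione to its thiol form with NADPH, averaged 937 ± 85.7 in ca-Nfatc2 islets, 897 ± 57.1 in ca-Nfatc1 islets and 1558 ± 83.8 in GFP islets (SD, n = 5). Its log2 fold changes were -0.74 with ca-Nfatc2 and -0.80 with ca-Nfatc1 (limma adjusted p = 3.26e-08 and 1.65e-08), with no overlap with GFP. Glrx, glutaredoxin, which removes glutathione from protein thiols, was at 936, 798, 886, 765 and 888 in ca-Nfatc2 islets, 1494, 1595, 1164, 1620.1 and 1207 in ca-Nfatc1 islets and 2111, 1922, 1592, 1560.1 and 1573 in GFP islets. The ca-Nfatc2 libraries were the lowest without overlap, while those of ca-Nfatc1 overlapped with GFP. The log2 fold change of Glrx was -1.03 with ca-Nfatc2 (limma adjusted p = 1.55e-07) and -0.31 with ca-Nfatc1 (limma adjusted p = 0.0203). The ca-Nfatc1 call was lost when ca-Nfatc1 replicate 3 or 5 or GFP replicate 1 or 2 was left out (limma adjusted p = 0.0546 to 0.0631).

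**Figure D2:**
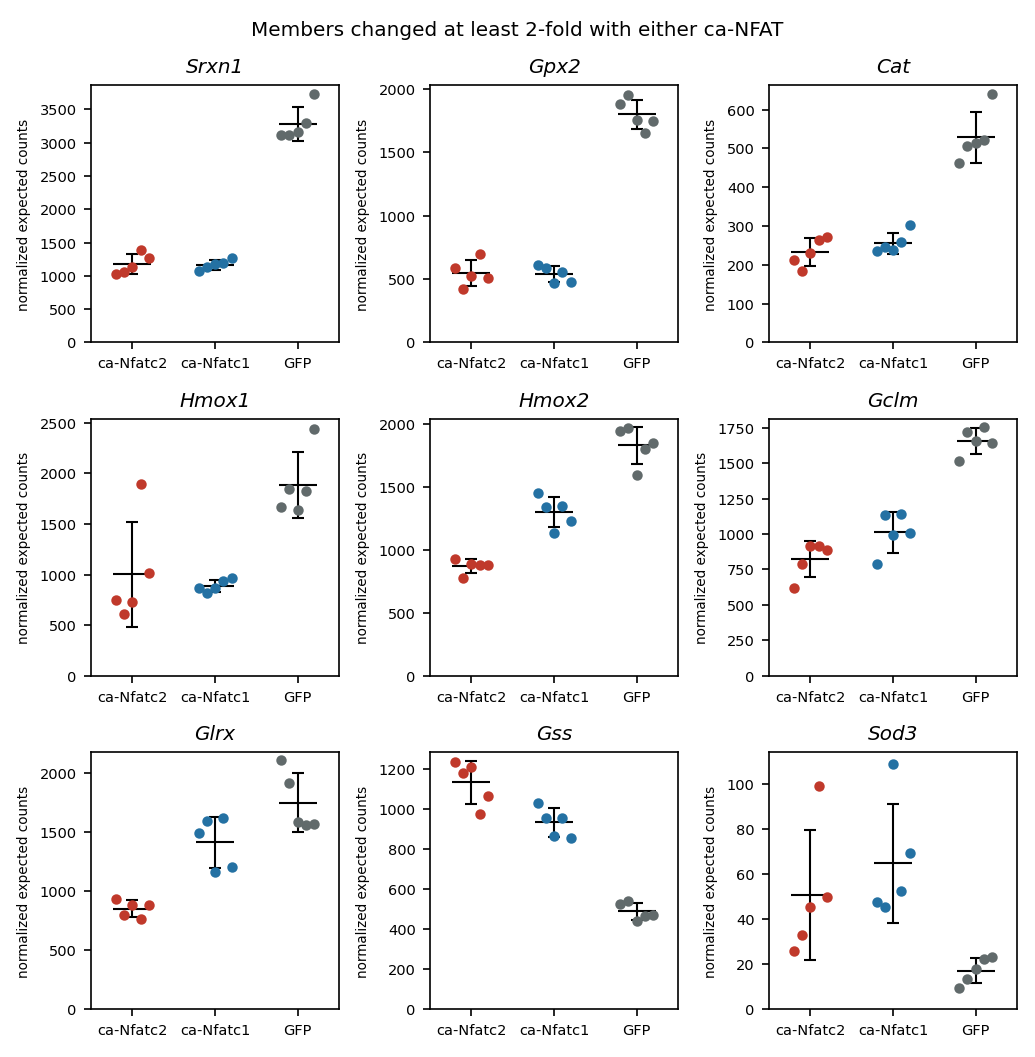
Normalized expected counts per library of the 9 genes that changed at least 2-fold with either ca-NFAT; each point is 1 library (5 per group, points spread sideways by replicate), with the mean as a horizontal line and bars of 1 SD, on axes that start at 0. Srxn1, Gpx2, Cat and Gclm show both ca-NFAT groups below every GFP library, Gss and Sod3 above, and in Hmox1 the high ca-Nfatc2 point of 1896 is replicate 4.

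In the thioredoxin system, sulfiredoxin and the reductases fell and cytosolic thioredoxin rose. Srxn1, sulfiredoxin, which repairs overoxidized peroxiredoxins, was at 1022, 1059, 1136, 1395 and 1261 in ca-Nfatc2 islets, 1071, 1129, 1171, 1197 and 1269 in ca-Nfatc1 islets and 3111, 3122, 3161, 3293 and 3724 in GFP islets. All 10 ca-NFAT values were under the lowest GFP value, and both viruses gave a log2 fold change of -1.49 (limma adjusted p = 2.87e-11 with ca-Nfatc2 and 3.38e-11 with ca-Nfatc1). Txnrd1, the cytosolic thioredoxin reductase, averaged 3516 ± 564 in ca-Nfatc2 islets, 2849 ± 360.0 in ca-Nfatc1 islets and 4501 ± 564 in GFP islets (SD, n = 5). Its log2 fold changes were -0.36 and -0.66 with ca-Nfatc2 and ca-Nfatc1 (limma adjusted p = 0.012 and 0.000129), lower on each of the 5 days with both. Txnrd2, the mitochondrial reductase, averaged 184 ± 13.4 in ca-Nfatc2 islets, 172 ± 7.62 in ca-Nfatc1 islets and 235 ± 10.5 in GFP islets, log2 fold changes of -0.36 and -0.45 (limma adjusted p = 0.000532 and 8.09e-05). Both thioredoxins, the carriers that these reductases renew, rose with ca-Nfatc2. Txn1, cytosolic thioredoxin, averaged 3067 ± 216 in ca-Nfatc2 islets, 2428 ± 290.1 in ca-Nfatc1 islets and 1758 ± 63.03 in GFP islets, and rose by log2 fold changes of 0.80 and 0.46 (limma adjusted p = 5.02e-08 and 6.08e-05), with no overlap with GFP. Txn2, the mitochondrial thioredoxin, averaged 2104 ± 159 in ca-Nfatc2 islets, 1307 ± 97.8 in ca-Nfatc1 islets and 1571 ± 113 in GFP islets. It rose with ca-Nfatc2 (0.42 on the log2 scale, limma adjusted p = 3.78e-05) and fell with ca-Nfatc1 (-0.27, limma adjusted p = 0.00341).

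Txnip, the thioredoxin-interacting protein, binds and blocks reduced thioredoxin and is a glucose-responsive gene of beta cells. It ranged over 1162 to 1665 in ca-Nfatc2 islets, 2204 to 2859 in ca-Nfatc1 islets and 1753 to 2184 in GFP islets, so that no group overlapped with another. The log2 fold change was -0.56 with ca-Nfatc2 (limma adjusted p = 3.53e-05) and 0.29 with ca-Nfatc1 (limma adjusted p = 0.0126), each on 5 of 5 days. Arrdc4, another glucose-responsive arrestin, averaged 1077 ± 116 in ca-Nfatc2 islets, 1051 ± 65.8 in ca-Nfatc1 islets and 395 ± 48.3 in GFP islets (SD, n = 5), a rise with both viruses (1.45 and 1.41 on the log2 scale, limma adjusted p = 1.43e-10 and 2.38e-10).

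The peroxiredoxins, which reduce hydrogen peroxide and other peroxides with thioredoxin, had a median absolute log2 fold change of 0.17 with ca-Nfatc2 and 0.37 with ca-Nfatc1, against 0.52 and 0.48 over the 34 genes and 0.44 and 0.32 over all genes. With ca-Nfatc2 2 of the 6 rose, 1 fell and 3 did not pass (median log2 fold change 0.057), and with ca-Nfatc1 2 rose, 2 fell and 2 did not pass (median -0.12). Thus 50% passed with ca-Nfatc2 and 66.7% with ca-Nfatc1, against 68.6% and 56.8% of all genes. Prdx1, a cytosolic member, averaged 6323 ± 467 in ca-Nfatc2 islets, 5593 ± 430.1 in ca-Nfatc1 islets and 7281 ± 338 in GFP islets (SD, n = 5). It fell with both, with log2 fold changes of -0.21 and -0.38 (limma adjusted p = 0.0102 and 8.02e-05), and every GFP library was above every ca-NFAT library. The mitochondrial Prdx3 averaged 2371 ± 164 in ca-Nfatc2 islets, 1407 ± 133 in ca-Nfatc1 islets and 1574 ± 138 in GFP islets. Its rise with ca-Nfatc2 was 0.59 on the log2 scale (limma adjusted p = 2.05e-06), and the ca-Nfatc1 value was -0.16 (limma adjusted p = 0.0763), which passed in the fit with the day as a block (limma adjusted p = 0.0326) and when ca-Nfatc1 replicate 2 or GFP replicate 3 was left out (limma adjusted p = 0.0452 to 0.0471). Prdx2, another cytosolic member, averaged 3272 ± 195 in ca-Nfatc2 islets, 2552 ± 286 in ca-Nfatc1 islets and 2661 ± 113 in GFP islets, with log2 fold changes of 0.30 with ca-Nfatc2 (limma adjusted p = 0.00121) and -0.067 with ca-Nfatc1 (limma adjusted p = 0.437).

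The other peroxiredoxins passed with ca-Nfatc1 alone, in both directions. Prdx4, the member of the endoplasmic reticulum, averaged 609 ± 104 in ca-Nfatc2 islets, 711 ± 51.1 in ca-Nfatc1 islets and 548 ± 21.2 in GFP islets (SD, n = 5), with log2 fold changes of 0.14 with ca-Nfatc2 (limma adjusted p = 0.242) and 0.37 with ca-Nfatc1 (limma adjusted p = 0.00426). With ca-Nfatc2 it passed, at 0.25, when ca-Nfatc2 replicate 4 was left out (limma adjusted p = 0.00459 without it). Prdx5, found in mitochondria, peroxisomes and cytosol, averaged 1323 ± 95.8 in ca-Nfatc2 islets, 1843 ± 207 in ca-Nfatc1 islets and 1433 ± 86.3 in GFP islets, with -0.12 and 0.36 on the log2 scale (limma adjusted p = 0.183 and 0.000602). Prdx6, which uses glutathione in place of thioredoxin, averaged 2514 ± 193 in ca-Nfatc2 islets, 1855 ± 195 in ca-Nfatc1 islets and 2561 ± 286 in GFP islets, with log2 fold changes of -0.023 and -0.46 (limma adjusted p = 0.818 and 0.000123). The table also holds its relative Prdx6b, and reads shared between them could not be told apart here.

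Of the enzymes against superoxide, the mitochondrial and extracellular forms rose and the cytosolic form fell, and catalase fell. Sod3, the extracellular superoxide dismutase, was at 25.9, 33.2, 45.2, 99.1 and 49.9 in ca-Nfatc2 islets, 47.5, 45.4, 109, 52.5 and 69.3 in ca-Nfatc1 islets and 9.60, 13.4, 17.9, 22.2 and 23.03 in GFP islets. It was low in every library but apart from GFP with both viruses, and its highest values were in ca-Nfatc2 replicate 4 and ca-Nfatc1 replicate 3. The log2 fold changes were 1.42 with ca-Nfatc2 (standard error 0.33, limma adjusted p = 0.000997) and 1.83 with ca-Nfatc1 (limma adjusted p = 0.000125). Sod2, the mitochondrial manganese enzyme, ranged over 1916 to 3031 in ca-Nfatc2 islets, 2176 to 2584 in ca-Nfatc1 islets and 1804 to 2084 in GFP islets. Its log2 fold changes were 0.27 and 0.30 (limma adjusted p = 0.0147 and 0.0104). The value with ca-Nfatc2 was 0.17 without ca-Nfatc2 replicate 4 (limma adjusted p = 0.0355) and 0.13 without replicates 4 and 5 (limma adjusted p = 0.139).

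Sod1, the cytosolic copper and zinc enzyme, averaged 3751 ± 235 in ca-Nfatc2 islets, 3292 ± 399.7 in ca-Nfatc1 islets and 4318 ± 322 in GFP islets (SD, n = 5). It fell with both, with log2 fold changes of -0.20 and -0.40 (limma adjusted p = 0.0343 and 0.000426). The ca-Nfatc2 call was lost when ca-Nfatc2 replicate 2 or 3 or GFP replicate 1 or 2 was left out (limma adjusted p = 0.0642 to 0.0918). Cat, catalase, which splits hydrogen peroxide in peroxisomes, was at 211, 184, 230.5, 265 and 273 in ca-Nfatc2 islets, 235, 246, 239, 259 and 302 in ca-Nfatc1 islets and 462, 507, 513, 522 and 639 in GFP islets. All ca-NFAT libraries were below the lowest GFP library, on each day, and the log2 fold changes were -1.19 with ca-Nfatc2 and -1.04 with ca-Nfatc1 (limma adjusted p = 4.8e-08 and 3.95e-07).

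Among the glutathione peroxidases 1 of 6 rose and 4 fell with either virus, with median log2 fold changes of -0.74 with ca-Nfatc2 and -0.48 with ca-Nfatc1. The share that passed was 83.3% with either virus, against 68.6% of all genes with ca-Nfatc2 and 56.8% with ca-Nfatc1. Gpx2, a selenoenzyme known from gut epithelium and a known Nrf2 target, had the largest change of the 34 genes with ca-Nfatc2. It was at 585, 417, 521, 694 and 512 in ca-Nfatc2 islets, 611, 584, 465, 553 and 476 in ca-Nfatc1 islets and 1883, 1949, 1749, 1654 and 1749 in GFP islets. The highest ca-NFAT library was far under the lowest GFP library, and the log2 fold changes were -1.74 and -1.74 (limma adjusted p = 2.47e-10 and 2.87e-10). Gpx4, the selenoenzyme that reduces lipid hydroperoxides in membranes, averaged 1479.5 ± 117 in ca-Nfatc2 islets, 1732 ± 276 in ca-Nfatc1 islets and 2868 ± 259 in GFP islets (SD, n = 5), log2 fold changes of -0.95 and -0.74 (limma adjusted p = 7.6e-08 and 2.88e-06). Gpx3, the secreted form, averaged 3478 ± 469.6 in ca-Nfatc2 islets, 4600.3 ± 497 in ca-Nfatc1 islets and 5978 ± 1306 in GFP islets, with -0.77 and -0.36 on the log2 scale (limma adjusted p = 3.06e-05 and 0.0203). The ca-Nfatc1 call of Gpx3 was lost when ca-Nfatc1 replicate 2 or GFP replicate 3 was left out (limma adjusted p = 0.0518 to 0.0617).

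Gpx1, the main cytosolic selenoenzyme of the family, was the member that rose. It averaged 1414 ± 176 in ca-Nfatc2 islets, 1841 ± 350.2 in ca-Nfatc1 islets and 1096 ± 152 in GFP islets (SD, n = 5), log2 fold changes of 0.37 with ca-Nfatc2 and 0.74 with ca-Nfatc1 (limma adjusted p = 0.018 and 0.000111). Only the ca-Nfatc1 libraries were all above GFP, and the ca-Nfatc2 call was lost when GFP replicate 5 was left out (limma adjusted p = 0.061 without it) and without ca-Nfatc2 replicates 4 and 5 together (0.0928). Gpx8, a cysteine form of the endoplasmic reticulum, was at 41.8 ± 9.09, 44.5 ± 4.20 and 67.8 ± 8.18 in ca-Nfatc2, ca-Nfatc1 and GFP islets, log2 fold changes of -0.71 and -0.59 (limma adjusted p = 0.000694 and 0.0037). Gpx7, also of the endoplasmic reticulum, averaged 32.05 ± 8.89 in ca-Nfatc2 islets, 36.7 ± 8.47 in ca-Nfatc1 islets and 25.5 ± 6.88 in GFP islets. Its log2 fold changes were 0.31 and 0.51 (limma adjusted p = 0.252 and 0.0739). The ca-Nfatc1 value passed with the day as a block (limma adjusted p = 0.0242) and when ca-Nfatc2 replicate 4, ca-Nfatc1 replicate 4 or GFP replicate 5 was left out (limma adjusted p = 0.0235 to 0.048).

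Selenocysteine is built into Gpx1, Gpx2, Gpx3, Gpx4 and the thioredoxin reductases by dedicated factors. Of 13 tested genes of selenoprotein synthesis and other selenoproteins, 2 rose and 8 fell with ca-Nfatc2 (median log2 fold change -0.42), and 3 rose and 8 fell with ca-Nfatc1 (median -0.30). Over all genes 35.7% rose and 32.8% fell with ca-Nfatc2, and 28.4% each way with ca-Nfatc1. Sepsecs, the enzyme that makes selenocysteine on its transfer RNA, averaged 1671 ± 283 in ca-Nfatc2 islets, 1959.8 ± 156 in ca-Nfatc1 islets and 3362 ± 419.6 in GFP islets (SD, n = 5), log2 fold changes of -1.02 and -0.77 (limma adjusted p = 2.19e-07 and 9.3e-06). Selm, a selenoprotein of the endoplasmic reticulum, also fell (-0.95 with ca-Nfatc2 and -0.54 with ca-Nfatc1, limma adjusted p = 4.41e-08 and 5.8e-05). Vimp, a selenoprotein of the machinery that exports misfolded proteins from the endoplasmic reticulum, rose (0.36 and 0.89, limma adjusted p = 0.00291 and 4.1e-07).

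Ferritin stores iron that heme oxygenase and other reactions release, and its chains differed. Ftl1, the light chain, averaged 33293 ± 3007 in ca-Nfatc2 islets, 27521 ± 3156 in ca-Nfatc1 islets and 42033 ± 3773 in GFP islets (SD, n = 5), log2 fold changes of -0.34 with ca-Nfatc2 and -0.61 with ca-Nfatc1 (limma adjusted p = 0.00441 and 2.49e-05). After quantile normalization of the libraries these values were -0.061 and -0.082 and did not pass (limma adjusted p = 0.532 and 0.42). Fth1, the heavy chain with the iron-oxidizing site, averaged 7579.5 ± 942 in ca-Nfatc2 islets, 9577 ± 980.5 in ca-Nfatc1 islets and 8125 ± 835 in GFP islets, with -0.10 and 0.24 on the log2 scale (limma adjusted p = 0.36 and 0.0478). The ca-Nfatc1 call was lost when ca-Nfatc2 replicate 2, 3 or 5, ca-Nfatc1 replicate 2, 4 or 5 or GFP replicate 1, 2 or 5 was left out (limma adjusted p = 0.0528 to 0.134). Both chains are known to have near-identical copies elsewhere in the genome, and how the reads were shared among them was not tested, so their values are uncertain.

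Of 14 tested genes of iron handling 6 rose and 5 fell with ca-Nfatc2, and 4 rose and 5 fell with ca-Nfatc1, with medians of 0.12 and 0.019. For all genes the shares were 35.7% and 32.8% with ca-Nfatc2, and 28.4% in each direction with ca-Nfatc1. Slc40a1, ferroportin, the exporter of iron from cells and a known target of Nrf2 in macrophages, averaged 889 ± 155 in ca-Nfatc2 islets, 899 ± 79.6 in ca-Nfatc1 islets and 2048 ± 169 in GFP islets (SD, n = 5), log2 fold changes of -1.22 and -1.19 (limma adjusted p = 8.98e-09 and 1.78e-08). Hfe, which acts in iron sensing, fell with log2 fold changes of -0.87 and -0.55 (limma adjusted p = 9.33e-08 and 3.15e-05). Cp, the copper ferroxidase ceruloplasmin, had log2 fold changes of 0.93 with ca-Nfatc2 and 0.52 with ca-Nfatc1 (limma adjusted p = 0.0421 and 0.27). It averaged 197 ± 147 in ca-Nfatc2 islets, with a median of 113, and 90.2 ± 45.6 in GFP islets. The ranges, 76.2 to 421 and 53.9 to 170, overlapped.

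Beyond the 34 genes, 26 further genes known as Nrf2 targets were looked at, of which 24 were tested. With ca-Nfatc2 7 rose and 14 fell (median log2 fold change -0.49), and with ca-Nfatc1 5 rose and 14 fell (median -0.56). Among all genes 35.7% rose and 32.8% fell with ca-Nfatc2, and 28.4% passed in each direction with ca-Nfatc1. Among those with a mean of at least 100, the genes with the largest changes went in opposite directions. Akr1b8, an aldo-keto reductase, averaged 3249 ± 411 in ca-Nfatc2 islets, 163 ± 10.2 in ca-Nfatc1 islets and 166 ± 37.4 in GFP islets (SD, n = 5), a log2 fold change of 4.30 with ca-Nfatc2 (limma adjusted p = 4.06e-15) and of -0.0034 with ca-Nfatc1 (95% interval -0.26 to 0.25, limma adjusted p = 0.983). Gstm1, a glutathione S-transferase, averaged 948 ± 119 in ca-Nfatc2 islets, 1328 ± 132 in ca-Nfatc1 islets and 4322 ± 347 in GFP islets, with -2.19 and -1.70 on the log2 scale (limma adjusted p = 5.13e-13 and 1.89e-11). Aox1, aldehyde oxidase, averaged 199 ± 22.6 in ca-Nfatc2 islets, 242 ± 25.96 in ca-Nfatc1 islets and 739.5 ± 124 in GFP islets, with -1.88 and -1.60 (limma adjusted p = 8.83e-11 and 1.04e-09). All 3 metallothioneins, which are metal-binding proteins, fell with both viruses. Mt3 was low, with means of 7.46 in ca-Nfatc2 islets, 6.67 in ca-Nfatc1 islets and 19.98 in GFP islets. Mt1 averaged 4519.7 ± 739.7 in ca-Nfatc2 islets, 5312 ± 963 in ca-Nfatc1 islets and 11673 ± 1975 in GFP islets (-1.37 and -1.14 on the log2 scale, limma adjusted p = 1.41e-07 and 2.09e-06). Mt2 fell with log2 fold changes of -0.98 and -0.83 (limma adjusted p = 3.55e-05 and 0.000266).

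**Figure D3:**
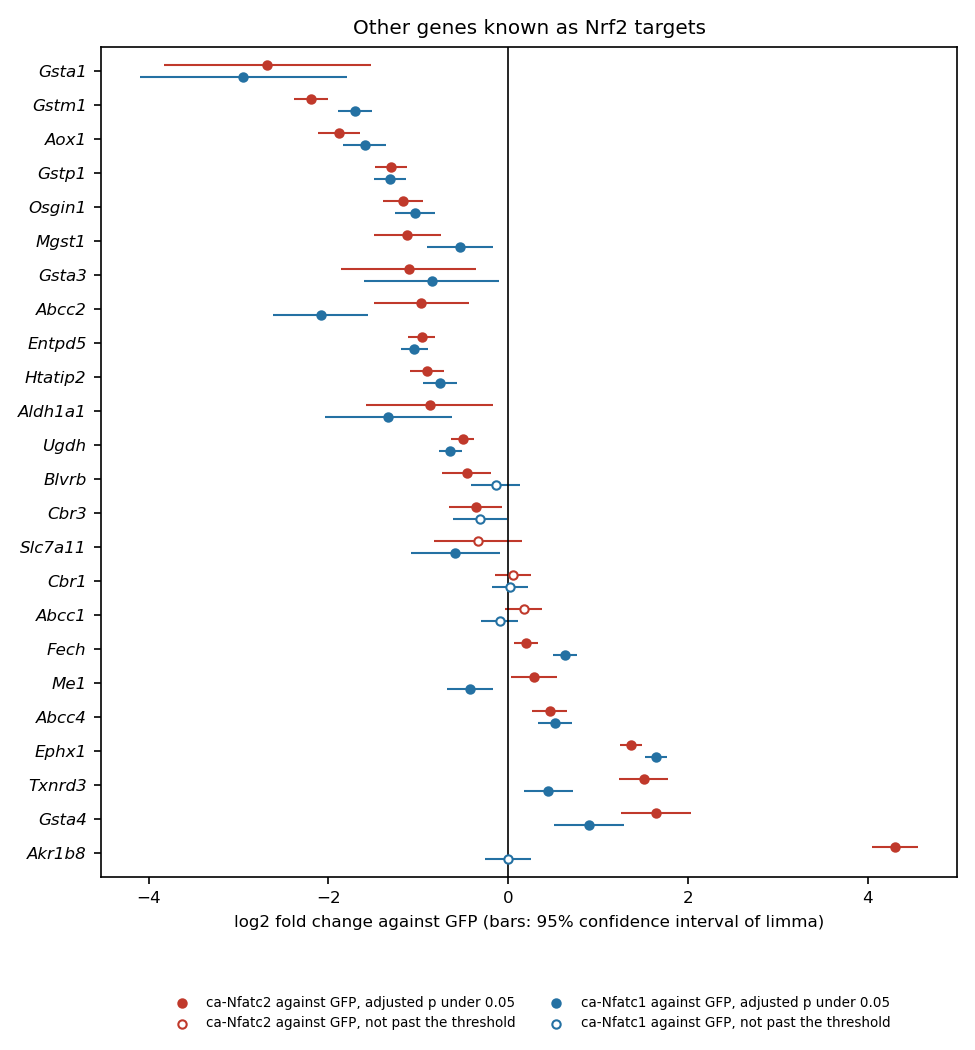
Log2 fold change against GFP of the 24 tested genes of the list of other Nrf2 targets, sorted by the value with ca-Nfatc2, which is drawn above ca-Nfatc1; bars are the 95% confidence interval of limma and open points did not pass. Most points lie left of 0, and Akr1b8 is at 4.30 with ca-Nfatc2 and at -0.0034 with ca-Nfatc1.

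NADPH feeds both the thioredoxin and the glutathione reductases. Of 10 tested genes of NADPH supply 5 rose and 5 fell with ca-Nfatc2, and 1 rose and 6 fell with ca-Nfatc1 (median log2 fold changes -0.12 and -0.54). Over all genes the shares were 35.7% upward and 32.8% downward with ca-Nfatc2, and 28.4% each way with ca-Nfatc1. Taldo1, transaldolase of the pentose phosphate pathway, rose with both (1.07 and 0.72, limma adjusted p = 8.81e-11 and 2.44e-08), whereas Idh2, the mitochondrial NADP-dependent isocitrate dehydrogenase, fell (-0.84 and -1.18, limma adjusted p = 1.66e-07 and 2.65e-09). Aldh1l2, a mitochondrial folate enzyme that makes NADPH, fell as well (-1.02 and -0.79, limma adjusted p = 2.59e-06 and 6.36e-05).

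Of 19 other thiol and repair proteins 6 rose and 9 fell with ca-Nfatc2, and 5 rose and 7 fell with ca-Nfatc1, with medians of -0.11 and -0.16. Beside this list and the next, 35.7% of all genes rose and 32.8% fell with ca-Nfatc2, and 28.4% each way with ca-Nfatc1. Nxn, nucleoredoxin, rose (0.95 and 1.29, limma adjusted p = 1.61e-06 and 5.23e-08), and Sesn2, a stress-induced sestrin, fell (-1.18 and -1.21, limma adjusted p = 1.62e-06 and 1.85e-06). Of 10 tested genes for sources of superoxide and hydrogen peroxide 3 rose and 2 fell with ca-Nfatc2, and 4 rose and 2 fell with ca-Nfatc1 (median log2 fold changes -0.042 and 0.21). Aox1, given above, is also of this list. Cybb, the catalytic subunit of the phagocyte NADPH oxidase, averaged 142 ± 15.1 in ca-Nfatc2 islets, 288 ± 35.6 in ca-Nfatc1 islets and 137 ± 22.5 in GFP islets (SD, n = 5), a log2 fold change of 0.062 with ca-Nfatc2 (limma adjusted p = 0.665) and 1.08 with ca-Nfatc1 (limma adjusted p = 6.79e-07). Ero1lb, the oxidase that forms disulfides in the endoplasmic reticulum of beta cells, averaged 7800.1 ± 2628 in ca-Nfatc2 islets, 10741 ± 1680.1 in ca-Nfatc1 islets and 19897 ± 4098 in GFP islets, with -1.40 and -0.88 (limma adjusted p = 5.7e-06 and 0.000907), and the summed beta cell markers were lower in the same groups, whose part was not tested.

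Set directly against each other, ca-Nfatc2 and ca-Nfatc1 islets differed in 19 of the 34 genes, 9 higher and 10 lower with ca-Nfatc2. Of all genes 49.3% passed in this comparison, 23.6% higher and 25.7% lower, so the share of the 34 is near the background. The median log2 difference was -0.013 over the 34 and -0.038 over all genes, and no member differed by 2-fold, as 7.63% of all genes did (4.73% higher and 2.9% lower). The 2 groups were apart, higher with ca-Nfatc2, in 5 genes and, lower, in 6, where 34.6% of all genes were apart (18.3% higher and 16.3% lower). Among the members described above as mitochondrial, wholly or in part, Txn2 and Prdx3 were higher with ca-Nfatc2, Prdx5 was lower, and Txnrd2 and Sod2 did not pass. Prdx3 ranged over 2173 to 2584 in ca-Nfatc2 islets and 1215 to 1539.9 in ca-Nfatc1 islets, and differed by 0.76 on the log2 scale (95% interval 0.60 to 0.92, limma adjusted p = 3.55e-07). Txn2 ranged over 1986 to 2284 in ca-Nfatc2 islets and 1152 to 1415 in ca-Nfatc1 islets, a log2 difference of 0.69 (limma adjusted p = 3.88e-07). Prdx6, Prdx2 and Txn1 were also higher with ca-Nfatc2 without overlap, by 0.44, 0.36 and 0.34 on the log2 scale (limma adjusted p = 0.00029, 0.000383 and 0.00126). Gss was higher by 0.28 (limma adjusted p = 0.00806) with overlapping groups.

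The genes lower with ca-Nfatc2 than with ca-Nfatc1 came from several branches. Txnip differed most, by -0.85 on the log2 scale (limma adjusted p = 8.49e-07), as described by its ranges above. Glrx differed by -0.72, Nqo1 by -0.65, Hmox2 by -0.57, Prdx5 by -0.47 and Fth1 by -0.34 (limma adjusted p = 2.88e-05, 8.98e-06, 6.31e-06, 5.86e-05 and 0.00822), all without overlap. Nqo1 ranged over 307 to 404 in ca-Nfatc2 islets and 489 to 598 in ca-Nfatc1 islets. Gpx3 was lower, at -0.41 on that scale (limma adjusted p = 0.0117), with overlapping groups. For Srxn1, Gpx2 and Cat, which fell at least 2-fold with both, the differences did not pass. They were 0.0015 for Srxn1 (95% interval -0.17 to 0.17), 0.0091 for Gpx2 (-0.22 to 0.24) and -0.15 for Cat (-0.38 to 0.091). Other members that did not pass were Keap1 at 0.013, Gclc at 0.032, Gsr at 0.062, Txnrd2 at 0.092, Sod2 at -0.027, Sod3 at -0.42, Gpx7 at -0.20 and Gpx8 at -0.11. Hmox1, which also fell at least 2-fold with both, was at 0.046 (limma adjusted p = 0.878), and at -0.35 without ca-Nfatc2 replicates 4 and 5 (limma adjusted p = 0.0199). Without these libraries Sod3 also passed, at -0.83 (limma adjusted p = 0.0446).

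**Figure D4:**
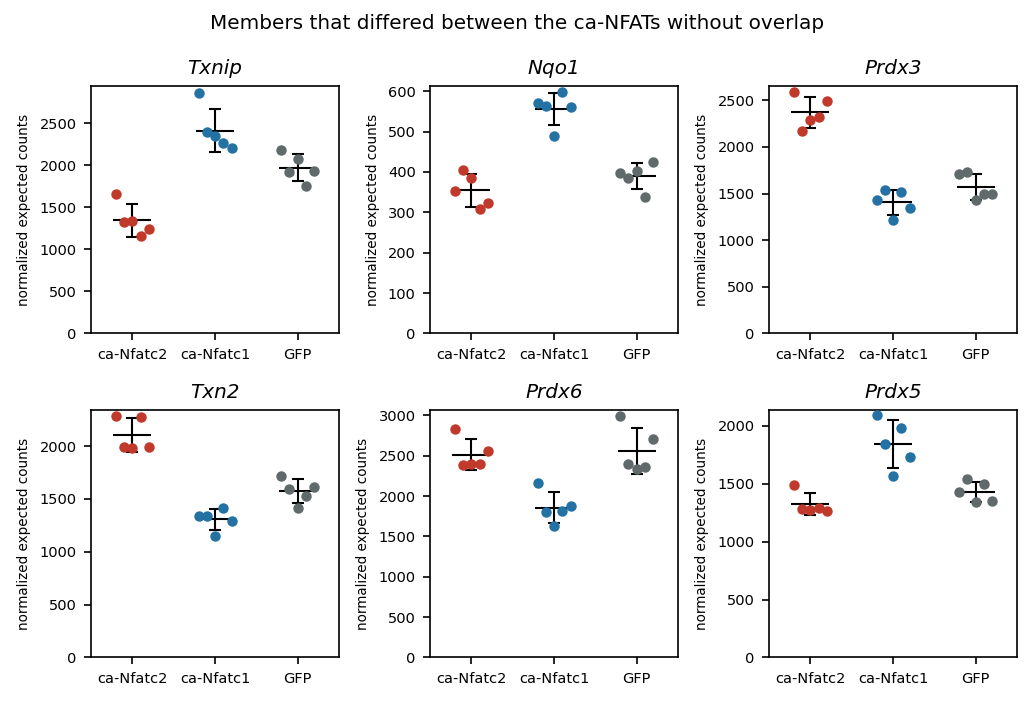
Normalized expected counts per library of Txnip, Nqo1, Prdx3, Txn2, Prdx6 and Prdx5, genes that differ between the ca-NFATs; each point is 1 library (5 per group), with the mean as a line and bars of 1 SD, on axes that start at 0. Prdx3, Txn2 and Prdx6 are higher with ca-Nfatc2 than with ca-Nfatc1, Txnip, Nqo1 and Prdx5 are lower, and in none of the 6 do these groups overlap.

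The calls of several smaller differences changed when single libraries were left out. Nfe2l2 was lower with ca-Nfatc2, at -0.19 on the log2 scale (limma adjusted p = 0.0467), a call lost when ca-Nfatc2 replicate 1, 2, 3 or 4, ca-Nfatc1 replicate 1, 2, 4 or 5 or GFP replicate 3, 4 or 5 was left out (limma adjusted p = 0.0502 to 0.111). Gclm was lower, at -0.30 (limma adjusted p = 0.0328), a call lost when ca-Nfatc2 replicate 1 or 2 or ca-Nfatc1 replicate 2, 4 or 5 was left out (limma adjusted p = 0.0557 to 0.0941), and its difference was -0.20 without ca-Nfatc2 replicate 1. Gpx1 was lower, at -0.37 (limma adjusted p = 0.0274), which no longer passed when ca-Nfatc2 replicate 3 or ca-Nfatc1 replicate 1, 4 or 5 was left out (limma adjusted p = 0.0594 to 0.0788). Txnrd1 was higher with ca-Nfatc2 by 0.30 (limma adjusted p = 0.0459) and lost its call when ca-Nfatc2 replicate 2, 3, 4 or 5, ca-Nfatc1 replicate 1 or 2 or GFP replicate 2, 4 or 5 was left out (limma adjusted p = 0.0519 to 0.132). Prdx1 was higher by 0.18 (limma adjusted p = 0.0333) and did not pass when ca-Nfatc2 replicate 4 or 5 or ca-Nfatc1 replicate 1, 3 or 5 was left out (limma adjusted p = 0.0557 to 0.0867). For Ftl1 the difference was 0.28 (limma adjusted p = 0.0215), not past the threshold when ca-Nfatc2 replicate 4 or ca-Nfatc1 replicate 3 was left out (limma adjusted p = 0.0565 to 0.0586). Without ca-Nfatc2 replicates 4 and 5 the differences of Txnrd1 and Prdx1 were 0.17 and 0.11 (limma adjusted p = 0.302 and 0.24). Sod1 (0.19), Prdx4 (-0.24) and Gpx4 (-0.22) did not pass (limma adjusted p = 0.0547, 0.0595 and 0.0647), but did with the day as a block (limma adjusted p = 0.0145, 0.0349 and 0.0275). Sod1 also passed when ca-Nfatc2 replicate 2, ca-Nfatc1 replicate 1 or 4 or GFP replicate 1 was left out (limma adjusted p = 0.0298 to 0.0452), Prdx4 when ca-Nfatc2 replicate 1 was left out (limma adjusted p = 0.0199 without it) and Gpx4 when ca-Nfatc2 replicate 5 or ca-Nfatc1 replicate 3 was left out (limma adjusted p = 0.0167 to 0.0493).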

How the data were processed

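RNA of 15 whole islet libraries was sequenced by the authors. Per the study's methods and the labels, reads were aligned with bowtie to RefSeq transcripts of mm10, gene expected counts were estimated with RSEM, and versions were not given in the sources used here. The expression signal that the authors deposited is this count after division by each library's size factor, found by the median-by-ratio method. Columns with the authors' group means, fold changes and EBSeq posterior probabilities, and their table of called genes, were not used. Of the values per library 45.2 to 52.3% were whole multiples of what 1 read is worth in that library (tolerance 0.005), so whole reads could not be recovered and no count model was run.

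A pseudocount of 1 was added before log2, and all 15 libraries entered a single limma model (version 3.58.1, R 4.3.3) with a mean-variance trend and a coefficient for each group. Fold changes are on this scale, which understates those of low genes. Two-sided p-values were adjusted by the Benjamini-Hochberg method over the 14151 genes whose 75th percentile was above 10, and the threshold was 0.05. The script was tested on simulated data. The authors' model has no day term, so the day entered only as an alternative. The days pair the libraries by design, since each day's pool was divided over the viruses, and same-day residuals correlated at 0.0544 to 0.473 (15 pairs, mean 0.219), against a mean of -0.0551 for 60 pairs of different days.

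The 34 genes, the other lists and their markers were chosen with earlier results of these data known. Values per library are given for genes changed at least 2-fold against GFP and for Nfe2l2 and Keap1. From each other list up to 3 genes were named, those past the threshold with the largest change against GFP and a mean of at least 100. Alternatives were the day block, other pseudocounts, filters and scalings, fits of 2 groups, and leaving out each library.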

Additional observations from a re-analysis of the deposited data

Results flagged for a closer look

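In 6 of the 102 groups of 5 libraries (34 genes in 3 groups) the highest or lowest library stood far from the other 4 of its group, and chance gives such a gap in about 1 in 20 groups. With GFP, Hmox1 was at 2438.3 in replicate 5, above 1633 to 1841 in the others, Gpx1 was at 831.26 in replicate 5, below 1109 to 1197, and Txnrd1 was at 3527.5 in replicate 1, below 4581 to 4986. With ca-Nfatc2, Prdx5 was at 1493.3 in replicate 1, above 1266 to 1293, and Fth1 was at 5922.1 in replicate 1, below 7711 to 8173. With ca-Nfatc1, Txnip was at 2859.2 in replicate 1, above 2204 to 2393. The cause of these gaps was not tested.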

How the results depend on the processing

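Each comparison of the 34 genes was run under 8 settings besides leaving out each library. With 1 library left out, the genes higher and lower numbered 8 to 10 and 18 to 19 for ca-Nfatc2 against GFP, 10 to 12 and 19 to 20 for ca-Nfatc1 against GFP, and 6 to 10 and 7 to 11 for ca-Nfatc2 against ca-Nfatc1. Over all genes tested these counts were 4870 to 5098 and 4493 to 4690, 3810 to 4094 and 3704 to 4162, and 3089 to 3430 and 3252 to 3765. With the replicate block for the day, which pairs the libraries, the 34 genes gave 9 and 19, 12 and 21, and 10 and 12, and all genes 5447 and 5159, 4443 and 4723, and 3833 and 4429. The block changed the calls of Prdx3, Gpx7, Prdx4, Sod1 and Gpx4 given above and no other call of the 34 genes.

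Pseudocounts of 0.5 and 10 and a minimum mean of 100 changed no call of the genes they could test. With equal totals the median of all genes for ca-Nfatc2 against GFP was 0.065 and with quantile normalization -0.091, and for ca-Nfatc1 against GFP 0.038 and -0.11. The share of calls over all genes that were higher was 52.1% for ca-Nfatc2 against GFP (43.5% after quantile normalization and 56.8% with equal totals) and 50% for ca-Nfatc1 against GFP (39.1% and 57.9%). Quantile normalization also ended the Ftl1 calls (0.021, limma adjusted p = 0.859, for ca-Nfatc2 against ca-Nfatc1) and added Nqo1 for ca-Nfatc2 against GFP (-0.23, limma adjusted p = 0.0294) and Prdx3 for ca-Nfatc1 against GFP (-0.19, limma adjusted p = 0.0271). For ca-Nfatc2 against ca-Nfatc1 the fits without the filter, with quantile normalization and without ca-Nfatc2 replicates 4 and 5 ended Nfe2l2 (limma adjusted p = 0.0531, 0.0553 and 0.0523), these and equal totals ended Txnrd1 (0.0579 to 0.302), and the fit of only these 2 groups ended Gclm, Txnrd1 and Prdx1 (0.0616, 0.0514 and 0.0567). Equal totals and quantile normalization each added Sod1 and Prdx4 there (0.0351 to 0.0468). Equal totals ended Sod1 for ca-Nfatc2 against GFP (limma adjusted p = 0.0813) and Gpx3 for ca-Nfatc1 against GFP (0.0692). Without the filter on low values Fth1 did not pass for ca-Nfatc1 against GFP (limma adjusted p = 0.0619). Without ca-Nfatc2 replicates 4 and 5, chosen after seeing the data, Hmox1 in ca-Nfatc2 against ca-Nfatc1 was -0.353 (limma adjusted p = 0.0199) against 0.046 with all libraries, Ftl1 did not pass (0.114), and the genes higher and lower in that comparison numbered 6 and 11. The causes were not tested.

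With ca-Nfatc2 against GFP the standard error was 0.33 for Sod3, 0.24 for Gpx7, 0.21 for Hmox1 and 0.16 for Gpx8, against 0.102 at the median of all genes.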
